A study of Mus musculus with 4 samples.

Results

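Described here are 34 genes of glucose breakdown and of the response to low oxygen in single cells from mouse liver, out of 50766 genes in the count tables. The members are a list of gene symbols, chosen by the genes' roles but with earlier results of these data known, and all 34 were present in the gene tables of all 4 libraries. They comprise 11 genes of glucose uptake and upper glycolysis, 5 of lower glycolysis, 5 that set the fate of pyruvate and lactate, 5 subunits and hydroxylases of the hypoxia-inducible factor (HIF) system, and 8 other targets of HIF. The libraries came from 4 mice of the genotype Sox9EGFP, in which EGFP is named with the biliary and progenitor gene Sox9, and the labels call the cells biliary epithelial cells (BECs), which line the bile ducts. In 2 mice the tissue was taken 7 days after sham surgery, and in the other 2 the bile duct had been tied 7 days before (bile duct ligation, BDL), which blocks the outflow of bile. Each mouse gave 1 library (n = 2 per group), and how the cells were isolated, the age and the sex are not given in the sources used here.

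Glycolysis carries glucose to pyruvate through a chain of cytosolic enzymes, many of which exist as isozymes with different tissue distributions. Pyruvate then enters the mitochondrion or is reduced to lactate and exported. HIF is a pair of an oxygen-sensitive alpha subunit (Hif1a or Epas1) and the stable partner Arnt. In the presence of oxygen the prolyl hydroxylases Egln1 and Egln3 mark the alpha subunit for destruction, so HIF activity is set largely at the protein level, which RNA counts do not measure. In liver, bile ducts are supplied by branches of the hepatic artery, and hepatocytes and biliary cells use different isozymes of the glycolytic chain.

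The libraries held 2863 and 3194 cells (sham replicates 1 and 2) and 2089 and 4065 cells (BDL replicates 1 and 2). The median number of transcripts counted by unique molecular identifier (UMI) per cell was 3260 and 2610 after sham surgery and 7058 and 7793 after BDL, so depth differed with the group. The group name inside the deposited cell tables goes against the sample label for sham replicate 2, which is called BDL there, and for BDL replicate 2, which is called sham. Groups follow the sample labels. The clusters of BEC-like cells described below divided the libraries as the sample labels do: cluster 1 held 41.4% and 32.2% of the sham cells of this class and 0.21% and 0.115% of the BDL cells, and cluster 2 held 0.192% and 0.116% and then 28.6% and 35.2%. In every pair of values below, replicate 1 comes first, so the first value of each pair belongs to the libraries whose label and table match. No cell barcode occurred in more than 1 library. Clusters with biliary markers (BEC-like) held 2603, 2582, 1905 and 3467 cells in the order above, and clusters with fibroblast and stellate cell markers (mesenchymal-like) held 188, 416, 71 and 132. The 11 biliary markers, Krt19, Epcam and Sox9 among them, together made up 10391 to 11301 CPM of BEC-like cells (counts scaled to one fixed total per library) in every library, so the labelled cell type was found. A cluster of 405 cells led by Dmbt1 and Duox2 and a cluster of 29 cells with tuft cell genes carried biliary markers but were kept apart, the first because the mesothelial marker Msln was among its leading genes.

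The promoters of the members were read for the core of the HIF binding motif, ACGTG, since the members that moved after BDL went both ways. RefSeq promoter windows of assembly GRCm38.p6 were available for 32 of the 34 members, all except Epas1 and Ndrg1. In the 250 bases before the start of transcription, ACGTG on either strand occurred in at least 1 window of 19 of the 32 members (59.4%), against 18.5% of all 27025 genes in the same table. The related GCGTG occurred in 22 of the 32, against 30.9% of all genes. The members were listed as glycolysis genes and HIF targets, so a share above that of all genes is no independent result. They also had more windows per gene, 46 for 32 members against 32851 for 27025 genes, which raises a count of at least 1 window. By the test in BEC-like cells described below, ACGTG was present in 7 of 8 members that rose, 4 of 7 that fell and 8 of 17 that were not called, and GCGTG in 4 of 8, 7 of 7 and 11 of 17. The following windows, 5′ to 3′ on the gene's own strand, belong to the 5 members with this motif and the largest changes in either direction among those called in BEC-like cells. Capitals mark ACGTG or its complement CACGT, which overlap in Bnip3.
Hk2, chr6:82774455-82774704, minus strand: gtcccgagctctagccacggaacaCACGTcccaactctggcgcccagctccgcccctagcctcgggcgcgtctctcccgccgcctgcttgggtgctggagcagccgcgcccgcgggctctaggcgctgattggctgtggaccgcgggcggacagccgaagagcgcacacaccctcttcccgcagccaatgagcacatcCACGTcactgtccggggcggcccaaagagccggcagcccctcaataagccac
Ddit4, chr10:59951771-59952020, minus strand: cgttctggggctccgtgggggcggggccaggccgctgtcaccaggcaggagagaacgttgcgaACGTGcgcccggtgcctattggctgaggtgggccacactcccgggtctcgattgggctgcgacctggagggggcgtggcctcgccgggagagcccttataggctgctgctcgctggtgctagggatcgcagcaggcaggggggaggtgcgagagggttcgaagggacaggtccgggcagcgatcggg
Car9, chr4:43506776-43507025, plus strand: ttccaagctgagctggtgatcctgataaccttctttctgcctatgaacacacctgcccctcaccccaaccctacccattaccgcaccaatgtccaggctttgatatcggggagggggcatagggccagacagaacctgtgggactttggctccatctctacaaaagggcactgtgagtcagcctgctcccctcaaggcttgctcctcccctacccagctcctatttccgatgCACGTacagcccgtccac
Bnip3, chr7:138909507-138909756, minus strand: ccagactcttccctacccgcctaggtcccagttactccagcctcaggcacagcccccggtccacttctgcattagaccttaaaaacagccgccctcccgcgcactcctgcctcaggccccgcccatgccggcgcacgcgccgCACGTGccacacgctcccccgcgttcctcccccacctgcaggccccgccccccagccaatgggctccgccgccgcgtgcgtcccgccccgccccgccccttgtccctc
Ankrd37, chr8:45999851-46000100, minus strand: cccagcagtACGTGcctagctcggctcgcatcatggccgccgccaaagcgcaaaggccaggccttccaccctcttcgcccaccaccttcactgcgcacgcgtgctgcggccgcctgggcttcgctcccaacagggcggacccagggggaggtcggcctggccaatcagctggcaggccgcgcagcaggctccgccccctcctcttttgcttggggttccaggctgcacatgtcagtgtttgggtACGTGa
Hk2, Ddit4 and Car9 rose after BDL, whereas Bnip3 and Ankrd37 fell. These genes were picked because they carry the motif, so its presence in genes of both directions here follows from that choice. A match of letters says nothing about binding.

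In BEC-like cells, RNA of 16 of the 34 members differed between BDL and sham, 8 higher and 8 lower. All 34 passed the filter on low counts. The share of 47.1% stood beside 28.1% of all 15820 genes tested (14.6% higher, 13.4% lower). The members' median log2 fold change was -0.23, against -0.03 for all genes. The rise was led by Hk2, Ddit4 and Car9, and the fall by Bnip3, Ankrd37 and Aldoc. In CPM, the 2 BDL libraries lay outside the range of the 2 sham libraries for 27 members, which is 79.4% and stands beside 68.7% of all genes tested. In the pair of libraries whose label and cell table match, the log2 differences were 0.33 to 2.06 for called members that rose and -1.81 to -0.68 for those that fell. Their direction in that pair was fixed in advance, since all 16 had groups that did not overlap. Both libraries were also part of the fit, so this is no separate check of the labels. Hk1, Hk2, Epas1 and Ddit4 stayed below an adjusted p of 0.05 whichever library was left out. The other 12 did not, and the values are given with each. In 10 other settings of the analysis all 16 kept their direction where they were tested, and 10 kept their call throughout. The exceptions were Pfkl, Hif1a and Gapdh, called in 3, 4 and 8 of the 10, Egln1 and Ankrd37, lost with DESeq2 (adjusted p = 0.0739 and 0.085), and Car9, lost with the sums thinned to the total of the shallowest library (adjusted p = 0.0687).

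**Figure D1:**
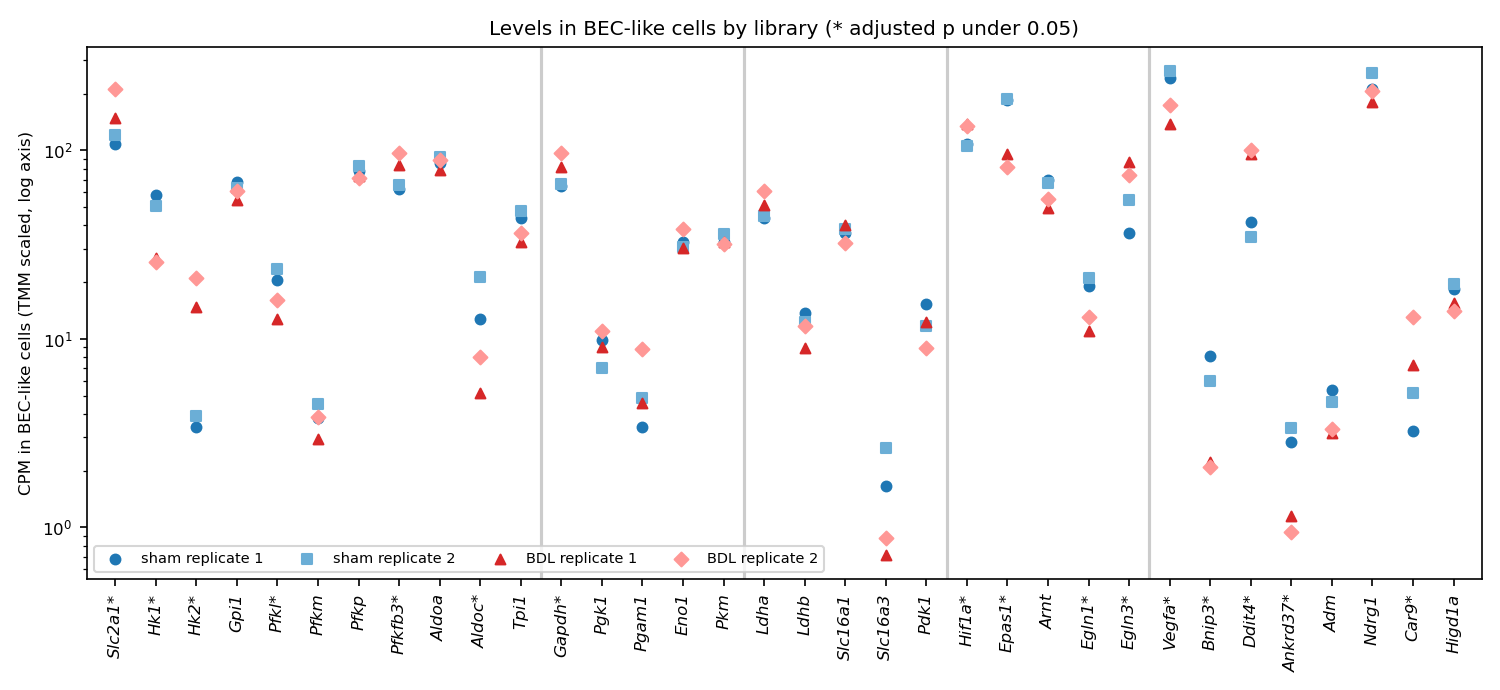
Level of each of the 34 members in BEC-like cells (CPM scaled by TMM, log axis), 1 point per library, blue for sham and red for BDL. Vertical lines part uptake and upper glycolysis, lower glycolysis, pyruvate and lactate fate, the HIF system and other HIF targets, and asterisks mark the 16 members with an adjusted p under 0.05. Hk2, Ddit4 and Car9 lie higher in both BDL libraries, and Hk1, Epas1, Bnip3 and Ankrd37 lie lower.

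At the entry of glucose, the transporter Slc2a1 (GLUT1) rose and the hexokinases, which phosphorylate glucose, moved in opposite directions. Slc2a1 stood at 107 and 120.3 CPM in sham cells and at 149 and 212 CPM in BDL cells (log2 fold change 0.67, SE 0.18, adjusted p = 0.0327). Both BDL libraries were above both sham libraries. Hk1, the hexokinase of most tissues, was at 58.1 and 50.8 CPM after sham and 26.9 and 25.6 CPM after BDL, a 2.08-fold lower by the fit (log2 fold change -1.05, SE 0.13, adjusted p = 0.00211). Hk2, the inducible hexokinase of muscle and growing cells, went from 3.42 and 3.88 CPM to 14.7 and 21.1 CPM, a 4.94-fold higher by the fit (log2 fold change 2.30, SE 0.25, adjusted p = 0.00141). For both hexokinases the spread within a group was small against the gap between the groups. Hk2 remained a low-count gene, with 35, 31, 205 and 604 UMIs in the 4 libraries, and it was the 1 member among the 2000 variable genes that defined the clusters. As a share of its level in mesenchymal-like cells of the same library, Hk2 stood at 1.22% and 1.81% after sham and 2.49% and 3.18% after BDL. The collagen gene Col1a1, a defining mesenchymal marker, stood at 0.100% and 0.214% and then at 0.0583% and 0.0817%. Of the 12 mesenchymal markers, 10, Col1a1 among them, stood at 0.0413% to 0.375%, below Hk2 in every library. The other two did not: Reln stood at 3.36% and 2.42% after sham, above Hk2, and at 0.485% and 1.10% after BDL, and Rgs5 at 25.6% and 12.6% and then 298% and 313%, above Hk2 in every library.

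At the step of phosphofructokinase, the regulator rose and the liver isozyme fell. Pfkfb3, whose product makes the activator fructose 2,6-bisphosphate, was at 62.01 and 65.6 CPM after sham and 83.5 and 96.6 CPM after BDL (log2 fold change 0.50, SE 0.12, adjusted p = 0.0251). Pfkl, the liver phosphofructokinase, was at 20.4 and 23.5 CPM and 12.8 and 16.1 CPM (log2 fold change -0.60, SE 0.18, adjusted p = 0.0473), close to the threshold. The platelet and muscle isozymes Pfkp and Pfkm were not called (log2 fold changes -0.16 and -0.28). Aldoc, the brain-type aldolase, was at 12.7 and 21.2 CPM and 5.16 and 8.03 CPM (log2 fold change -1.33, SE 0.31, adjusted p = 0.0213), and both BDL libraries lay below both sham libraries. The other members of upper glycolysis, the isomerases Gpi1 and Tpi1 and the ubiquitous aldolase Aldoa, were not called, with log2 fold changes of -0.18, -0.40 and -0.09 (adjusted p = 0.285, 0.0546 and 0.605). When libraries were left out, the adjusted p of Slc2a1 became 0.175 without sham replicate 1, 0.17 without sham replicate 2 and 0.0587 without BDL replicate 2. That of Pfkfb3 became 0.154 without sham replicate 1, 0.152 without sham replicate 2 and 0.0587 without BDL replicate 2, that of Aldoc 0.205 without sham replicate 2, and that of Pfkl 0.129 without sham replicate 1, 0.306 without sham replicate 2 and 0.101 without BDL replicate 1.

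Along lower glycolysis and in the handling of pyruvate and lactate, 1 of 10 members passed the test, beside 28.1% of all genes. Gapdh, the dehydrogenase of the payoff phase and a common reference gene, had 64.6 and 66.4 CPM after sham surgery and 81.1 and 97.2 CPM after BDL (log2 fold change 0.45, SE 0.13, adjusted p = 0.0411). Its groups did not overlap. The adjusted p of Gapdh became 0.193 without sham replicate 1, 0.205 without sham replicate 2 and 0.131 without BDL replicate 2. Pgk1, Pgam1, Eno1 and Pkm, the enzymes from phosphoglycerate to pyruvate, had log2 fold changes of 0.25, 0.73, 0.13 and -0.09 (adjusted p = 0.461, 0.189, 0.573 and 0.603), with overlapping groups for all but Pkm. Ldha, the subunit of lactate dehydrogenase that favours lactate production, was at 43.5 and 44.8 CPM and 51.3 and 60.7 CPM, with a log2 fold change of 0.34 that missed the threshold (adjusted p = 0.0915). Its partner subunit Ldhb had a log2 fold change of -0.33 (adjusted p = 0.26). The lactate carriers also stayed below the threshold. Slc16a1 (MCT1) had a log2 fold change of -0.04 (adjusted p = 0.865), and Slc16a3 (MCT4) one of -1.39 (adjusted p = 0.0649) from 10 to 25 UMIs per library. Pdk1, the kinase that holds pyruvate out of the mitochondrion, had a log2 fold change of -0.37 (adjusted p = 0.271). Several of these enzymes have processed pseudogenes. Those in the gene table held few counts in BEC-like cells, 10 UMIs in 5 copies of Gapdh against 5106 of the gene, and 12 UMIs in 7 copies of Tpi1 against 2326, but how reads shared by copies were counted is not given in the sources used here.

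The alpha subunits of HIF moved apart. Epas1 (HIF-2 alpha) was at 186 and 187 CPM after sham and 95.1 and 81.4 CPM after BDL, a 2.11-fold lower by the fit (log2 fold change -1.08, SE 0.12, adjusted p = 0.00153). Hif1a (HIF-1 alpha) was at 108 and 106 CPM and 138 and 134 CPM, a 1.27-fold higher by the fit (log2 fold change 0.35, SE 0.10, adjusted p = 0.0479). Neither gene's groups overlapped. Their common partner Arnt was at 69.6 and 66.7 CPM and 49.5 and 55.3 CPM and missed the threshold (log2 fold change -0.38, SE 0.12, adjusted p = 0.0522). The hydroxylases also moved apart. Egln1, the main oxygen sensor of this system, fell from 19.2 and 20.9 CPM to 11.03 and 12.99 CPM (log2 fold change -0.73, SE 0.17, adjusted p = 0.0194). Egln3, itself a classical HIF target, rose from 36.4 and 54.8 CPM to 87.1 and 73.9 CPM (log2 fold change 0.82, SE 0.20, adjusted p = 0.0246). The 2 sham libraries differed more for Egln3 than for the other members of this group, yet both lay below the BDL libraries. The call of Hif1a was lost whichever library was left out: its adjusted p became 0.168 without sham replicate 1, 0.204 without sham replicate 2, 0.0512 without BDL replicate 1 and 0.0673 without BDL replicate 2. For Egln1 the adjusted p became 0.0879 without sham replicate 1 and 0.18 without sham replicate 2, and for Egln3 0.115 without sham replicate 1.

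The fall of Epas1 was set beside the endothelial markers, since endothelial cells express this gene strongly. The 9 endothelial markers summed to 49.8 and 51.9 CPM within sham BEC-like cells and 25.7 and 13.8 CPM within BDL BEC-like cells, with none at 0. This was 0.742% and 0.773%, then 0.382% and 0.206%, of their sum in endothelial-like cells. These were pooled over all 4 libraries (40 and 122 cells after sham, 19 and 34 after BDL), so the reference is the same for each library. Epas1 in BEC-like cells stood at 40.2% and 36.5%, then 19.4% and 16.7%, of its level in the same pooled endothelial-like cells. In every library the share for Epas1 was above that for the markers. The part of endothelial RNA in the fall of Epas1 was not tested.

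Of the 8 other HIF targets, 2 rose, 3 fell and 3 were not called, where 14.6% of all genes rose and 13.4% fell. Ddit4 (REDD1), an inhibitor of mTORC1 that is induced by hypoxia and several other stresses, went from 41.6 and 34.7 CPM to 95.7 and 100.3 CPM, a 2.57-fold higher by the fit (log2 fold change 1.36, SE 0.13, adjusted p = 0.000902). Car9, a cell-surface carbonic anhydrase widely used as a marker of hypoxia, went from 3.23 and 5.13 CPM to 7.31 and 13.1 CPM (log2 fold change 1.32, SE 0.36, adjusted p = 0.0355), with 33, 41, 102 and 376 UMIs. Both BDL libraries lay above both sham libraries for each gene. Vegfa, the growth factor for blood vessels, fell from 242 and 263 CPM to 139 and 174 CPM (log2 fold change -0.69, SE 0.14, adjusted p = 0.0126). Bnip3, a receptor for the removal of mitochondria, fell from 8.12 and 6.01 CPM to 2.22 and 2.10 CPM, a 3.29-fold lower by the fit (log2 fold change -1.72, SE 0.28, adjusted p = 0.00641). Ankrd37, an ankyrin repeat gene induced by HIF-1, was at 2.84 and 3.38 CPM and 1.15 and 0.943 CPM (log2 fold change -1.58, SE 0.39, adjusted p = 0.0249), on 29, 27, 16 and 27 UMIs. For the 3 genes that fell the groups did not overlap. Adm (adrenomedullin, a vasodilator peptide), Ndrg1 (a stress-responsive gene) and Higd1a (a mitochondrial protein) were not called, with log2 fold changes of -0.63, -0.28 and -0.37 (adjusted p = 0.122, 0.173 and 0.12). Leaving out libraries moved the adjusted p of Vegfa to 0.0606 without sham replicate 1 and 0.157 without sham replicate 2, that of Bnip3 to 0.0689 without sham replicate 1 and 0.0559 without sham replicate 2, that of Ankrd37 to 0.11 without sham replicate 1, 0.175 without sham replicate 2 and 0.0621 without BDL replicate 2, and that of Car9 to 0.201 without sham replicate 1, 0.133 without sham replicate 2 and 0.0838 without BDL replicate 2.

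Markers of other cell types moved with the group in the BEC-like sums (given as CPM of the class total, without TMM factors). The 11 hepatocyte markers, with none at 0, summed to 1649 and 1685 CPM after sham surgery and 347 and 366 CPM after BDL, and 6 of the 9 tested fell while 1 rose. The 12 mesenchymal markers, with none at 0, summed to 360 and 253 CPM and then 1265 and 1645 CPM. Rgs5 accounted for 248 and 143 CPM and then 1247 and 1614 CPM of that sum, and after BDL it was above its level in mesenchymal-like cells. The other 11 markers summed to 112 and 109.99 CPM after sham and 17.8 and 31.2 CPM after BDL. The 5 mesothelial markers, with none at 0, summed to 334 and 277 CPM and then 92.2 and 90.1 CPM, and 2 of the 5 fell. In each of the other non-biliary lists at most 1 marker was called. The part of RNA from other cell types in the changes above was not tested. With the sums thinned to the shallowest library, all 16 called members kept their direction, and all but Gapdh and Car9 kept their call.

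Within BEC-like cells the members were not evenly spread, and the clusters are given here by number with the genes that lead them. Each cluster came almost wholly from libraries of 1 group, so these levels are descriptions (CPM within the cluster, in libraries with at least 30 of its cells). Sham cells fell into cluster 1 (led by Stxbp5l and Kcnma1), cluster 3 (Ddit4l, Txnip, Fos), cluster 5 (Car4, Tff2) and cluster 8 (Fer1l5, Scin), and BDL cells into cluster 2 (Ankrd1, Ccn2), cluster 4 (Nos2, Ccl20), cluster 6 (Nes, Cnksr2), cluster 7 (Wnt9a, Mcam), cluster 11 (Iqch, Ryr1) and the cycling cluster 12 (Mki67, Top2a). Cluster 5, with 508 and 687 cells, was the sham cluster with the highest levels of Egln3, Car9 and Ddit4. Egln3 was at 117 and 123 CPM there, against 15.4 to 25.98 CPM in sham clusters 1, 3 and 8. Car9 was at 12.6 and 14.7 CPM in cluster 5, against 0.47 to 2.97 CPM in the other sham clusters. Ddit4 was at 88.2 and 57.6 CPM, against 17.7 to 36.0 CPM. Epas1 was at 98.0 and 76.5 CPM, against 172 to 287 CPM. Vegfa in cluster 5, at 235 and 209.9 CPM, lay within the 190.2 to 283 CPM of the other sham clusters, and Hk2, at 5.48 and 2.52 CPM, was as low as in them (2.86 to 5.91 CPM). Slc2a1, which rose in the sums, was at 98.6 and 75.3 CPM in cluster 5, below the 125 to 136 CPM of clusters 1 and 3, and cluster 8 was at 85.4 and 115.7 CPM. In sham cells Egln3, Car9 and Ddit4 were thus high in 1 of 4 clusters, while Hk2 was low in all 4.

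Among BDL cells the same genes ranged widely too. Within each BDL library Egln3 was lowest in clusters 7 and 11 (28.8 to 46.8 CPM) and highest in clusters 4 and 6 (111 to 142 CPM), and Ddit4 was highest in cluster 4, at 152 and 135 CPM, where Hif1a was at 196 and 169 CPM. Epas1 was at 165 and 172 CPM in cluster 7, close to its level in sham cluster 1. Hk1 and Pdk1 shared another pattern. In sham cluster 8 Hk1 was at 159 and 106 CPM and Pdk1 at 43.3 and 29.5 CPM, and in BDL cluster 11 Hk1 was at 67.5 and 56.5 CPM and Pdk1 at 32.3 and 37.7 CPM. Elsewhere in BEC-like cells Hk1 ranged from 16.5 to 46.2 CPM and Pdk1 from 3.83 to 19.4 CPM. Clusters 8 and 11 both had Tll2 among their leading genes against the non-biliary cells. Hk2 was at 48.3 and 75.2 CPM in the cluster of Dmbt1 and Duox2 that was kept apart, above the 5.71 to 33.6 CPM of the BDL clusters within the class. With the clusters kept apart added to the class, 14 of the 16 members stayed called and all 16 kept their direction.

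**Figure D2:**
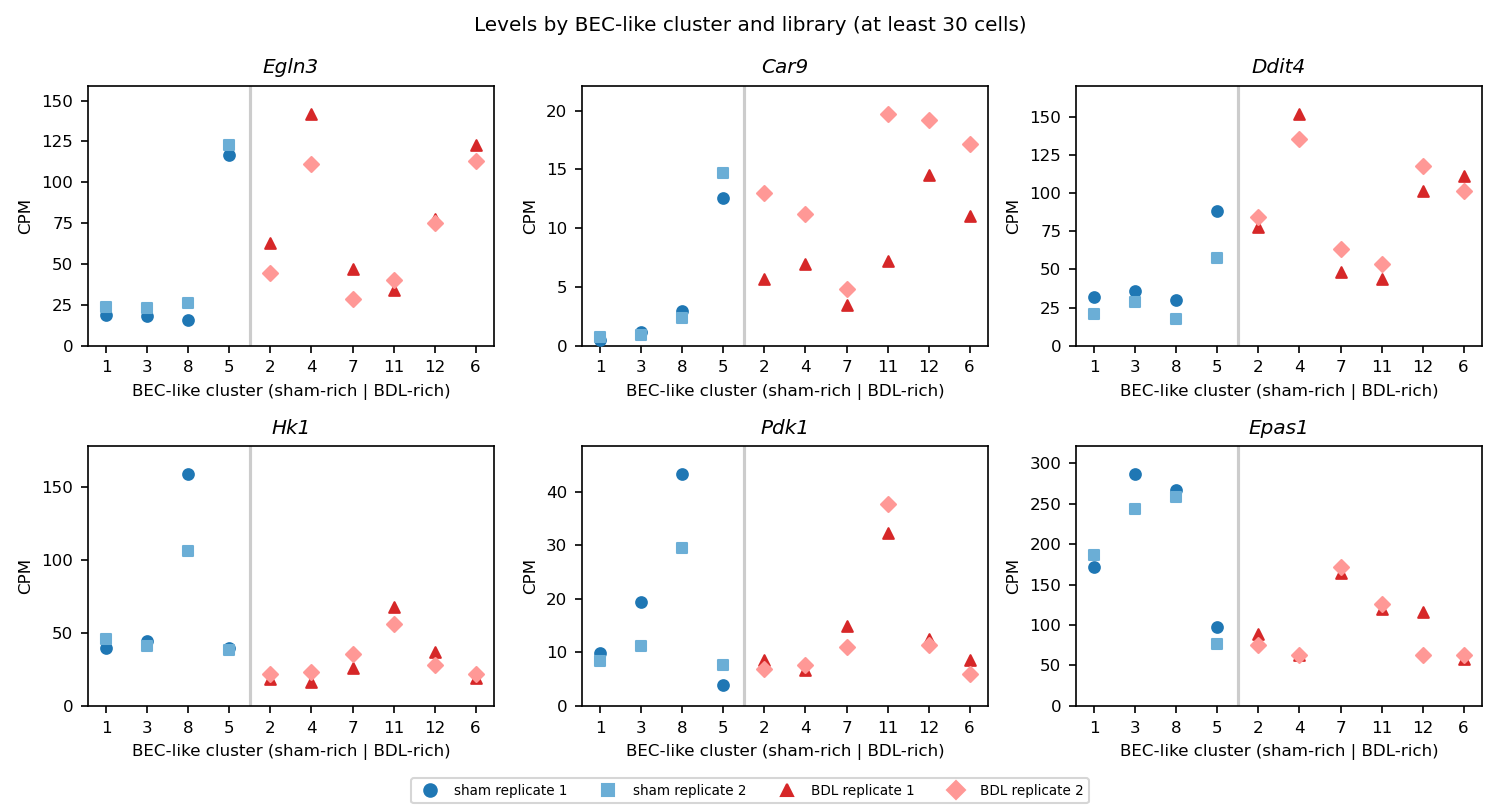
Level of Egln3, Car9, Ddit4, Hk1, Pdk1 and Epas1 (CPM) in each BEC-like cluster, 1 point per library with at least 30 cells of the cluster, with the clusters of sham cells on the left of the line and those of BDL cells on the right. Egln3, Car9 and Ddit4 are higher in sham cluster 5 than in the other sham clusters, and Hk1 and Pdk1 stand out in clusters 8 and 11.

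In mesenchymal-like cells, 4 of the 25 members that passed the filter on low counts were called, Slc2a1 and Hk2 higher and Epas1 and Adm lower after BDL. This is 16.0%, beside 6.85% of all 8778 genes tested (2.65% higher, 4.19% lower). Pfkm, Aldoc, Pgk1, Pgam1, Ldhb, Pdk1, Bnip3, Ankrd37 and Car9 did not pass the filter, at 0 to 15 UMIs per library. Hk2 was at 280.2 and 214 CPM after sham and 591 and 663 CPM after BDL, a 2.55-fold higher by the fit (log2 fold change 1.35, SE 0.24, adjusted p = 0.0115). Slc2a1 was at 66.9 and 69.6 CPM and 124 and 187 CPM (log2 fold change 1.21, SE 0.27, adjusted p = 0.0289). Epas1 was at 533 and 617 CPM and 329 and 212 CPM (log2 fold change -1.10, SE 0.26, adjusted p = 0.0348). Adm was at 46.01 and 38.3 CPM and 16.2 and 10.8 CPM (log2 fold change -1.70, SE 0.40, adjusted p = 0.0335). Among the 25 tested members 15 had groups that did not overlap, these 4 included, a share of 60.0% beside 52.6% of all genes tested. Among the members not called, Ldha and Ddit4 came nearest, with log2 fold changes of 0.86 and 1.10 (adjusted p = 0.0576 and 0.0692), and Hif1a had one of 0.09 (adjusted p = 0.865). Gapdh had a log2 fold change of 0.48 (adjusted p = 0.352), Vegfa -0.19 (0.764), Arnt 0.41 (0.352), Egln1 -0.33 (0.653) and Egln3 0.67 (0.591). None of the 4 calls held in all 4 fits that leave out 1 library. The adjusted p of Hk2 became 0.0547 without sham replicate 1 and 0.0583 without sham replicate 2, that of Slc2a1 0.178 without sham replicate 1, 0.074 without sham replicate 2 and 0.145 without BDL replicate 2, that of Epas1 0.125 without sham replicate 1, 0.112 without sham replicate 2 and 0.157 without BDL replicate 2, and that of Adm 0.152 without sham replicate 1 and 0.184 without BDL replicate 2. With DESeq2, Slc2a1 and Adm were not called (adjusted p = 0.0691 and 0.244), and without cycling cells Adm was not called. In the pair of libraries whose label and table match, the log2 differences were 0.87 to 1.07 for those that rose and -1.38 to -0.69 for those that fell. Here too the direction was fixed in advance, since the groups of all 4 did not overlap, so it is no separate check of the labels.

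The make-up of the mesenchymal-like class moved with the group. Cluster 9, led by Colec10 and the stellate cell gene Lrat, held 57.4% and 76.2% of the class after sham and 42.3% and 16.7% after BDL. Cluster 14, led by Fbn2 and Col1a1, held 9.57% and 3.85% and then 56.3% and 81.1%. Cluster 15, led by C7 and Igfbp3, held 33.0% and 19.95% and then 1.41% and 2.27%. Within cluster 14, on 18, 16, 40 and 107 cells, Hk2 was at 751 and 583 CPM after sham (104 and 87 UMIs) and 586 and 709 CPM after BDL, so the groups overlapped. Slc2a1 was at 50.5 and 73.7 CPM and 126 and 197 CPM in the same cells, and Epas1 at 36.1 and 60.3 CPM (5 and 9 UMIs) and 319 and 153 CPM, the opposite direction to that in the whole class. Hif1a and Vegfa, not called in the whole class, were lower in both BDL libraries of this cluster. Hif1a was at 693 and 469 CPM (96 and 70 UMIs) and then 182 and 183 CPM. Vegfa was at 527 and 255 CPM (73 and 38 UMIs) and then 129 and 186 CPM. Adm was at 0 UMIs in both sham libraries of cluster 14, which allows up to 21.7 and 20.1 CPM (3 counts, counting error only), and at 14.7 and 3.16 CPM (5 and 3 UMIs) in the BDL libraries. The fall of Adm in the whole class was thus not seen within this cluster, and at this depth no direction can be read there. Within cluster 9, on 108, 317 and 30 cells, Hk2 was at 131 and 148 CPM after sham and 514 CPM in BDL replicate 1, the BDL library with enough cells, and Epas1 was at 714 and 672 CPM and 309.9 CPM. Slc2a1 was at 71.4, 55.5 and 99.4 CPM and Adm at 42.9, 41.0 and 17.5 CPM in these 3 libraries. The 9 endothelial markers, with none at 0, summed to 375 and 329.6 CPM in mesenchymal-like cells after sham and 679.7 and 762 CPM after BDL, and 2 of the 3 tested rose. The 5 smooth muscle markers, with none at 0, went from 145 and 212 CPM to 302 and 347 CPM (1 of 4 tested rose), the 5 mesothelial markers, with none at 0, from 98.3 and 196 CPM to 19.5 and 47.0 CPM (the 1 tested fell), and the 4 plasma cell markers, with none at 0, from 99.7 and 72.6 CPM to 152 and 213 CPM (1 of 2 tested rose). The 11 hepatocyte markers, with Tat at 0, went from 136 and 299 CPM to 129 and 94.9 CPM (1 of 5 tested fell). The part of these lists in the values above was not tested. With so few cells of cluster 14 after sham and of cluster 9 after BDL, these values carry no test. At the finer clustering (resolution 2), mesenchymal-like cells led by Fbn2 and Serpina3n numbered 2, 2, 43 and 102 in the 4 libraries. Those led by Slit3 and Adgrd1 numbered 16, 13, 0 and 5. Whether the sham and BDL cells of cluster 14 are of the same kind was not tested.

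**Figure D3:**
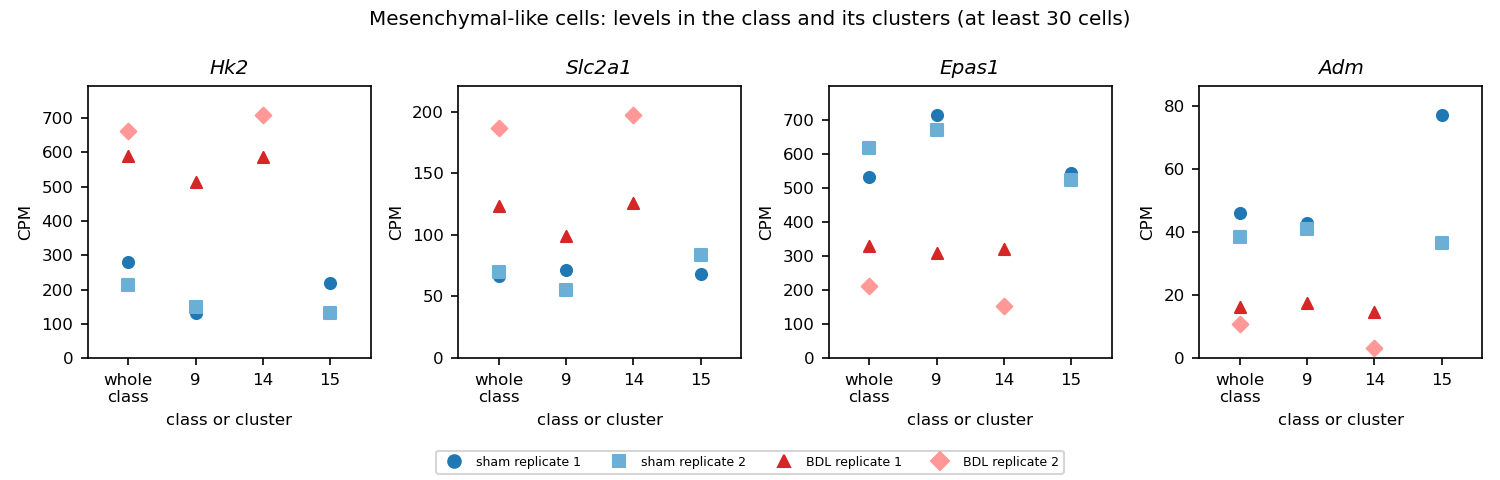
Level of Hk2, Slc2a1, Epas1 and Adm in mesenchymal-like cells as a whole (CPM scaled by TMM) and in clusters 9, 14 and 15 (CPM within the cluster), 1 point per library with at least 30 cells, blue for sham and red for BDL. Hk2 is higher in BDL libraries in the class, and its high values lie in cluster 14 and in cluster 9 of BDL replicate 1. Sham libraries are not drawn in cluster 14, where they held 18 and 16 cells and Hk2 was at 751 and 583 CPM.

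The effect of BDL was then compared between the classes in 1 model with the mouse as a block. Of the 34 members, Hk1 was called, with a more negative log2 change in BEC-like cells than in mesenchymal-like cells (interaction -0.99, SE 0.31, adjusted p = 0.0457), beside 6.77% of all 15297 genes tested (3.77% with a higher and 3.01% with a lower effect in BEC-like cells) and a median interaction of 0.11 over all genes. In mesenchymal-like cells Hk1 was at 72.5 and 78.3 CPM after sham and 66.99 and 76.5 CPM after BDL, with overlapping groups. The call of Hk1 passed the threshold in none of the 6 other settings in which it was tested, among them the 4 that leave out a library, so it rests on each of the libraries. Pfkfb3 (interaction 0.92, adjusted p = 0.0546) and Hk2 (0.93, adjusted p = 0.0598) missed the threshold. Slc2a1, called in both classes, had an interaction of -0.52 (SE 0.28, adjusted p = 0.33). Epas1 had one of 0.04 (SE 0.26, adjusted p = 0.964), with log2 fold changes of -1.08 and -1.10 in the classes. Adm, called in mesenchymal-like cells and not in BEC-like cells, had 1.09 (SE 0.58, adjusted p = 0.331), so a difference between the classes was not shown.

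**Figure D4:**
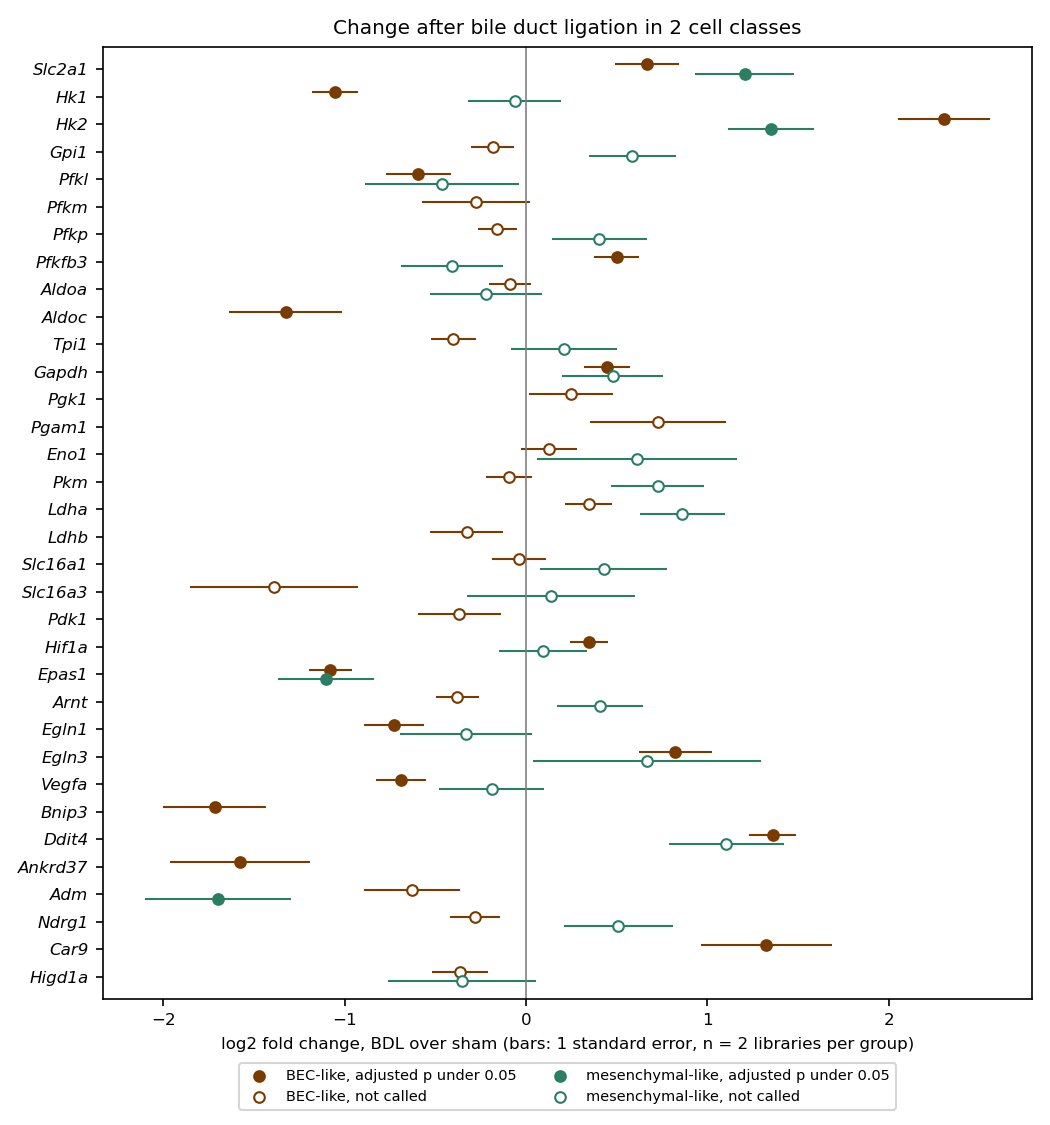
Log2 fold change of each member, BDL over sham, in BEC-like cells (brown) and in mesenchymal-like cells (green), with bars of 1 standard error and filled points for an adjusted p under 0.05. Epas1 lies at about the same place in both classes, Slc2a1 and Hk2 lie to the right in both, and Hk1 lies to the left in BEC-like cells and near 0 in mesenchymal-like cells.

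The other genes of these pathways were taken from lists of named genes. In BEC-like cells, 7 of 15 tested genes of the remaining glycolysis list fell (median log2 fold change -0.87), where 13.4% of all genes fell, 14.6% rose and 28.1% were called in either direction. Among them were Slc2a2, the liver glucose transporter GLUT2 (log2 fold change -2.95, SE 0.30, adjusted p = 0.00109), and the hexokinase-like Hkdc1 (log2 fold change -0.98, SE 0.12, adjusted p = 0.00222). Hkdc1 went from 73.3 and 64.98 CPM to 35.6 and 34.6 CPM. Slc2a2 is a gene that hepatocytes express strongly, and the hepatocyte markers fell in the same sums. The part of hepatocyte RNA in the fall of Slc2a2 and of the other genes on these lists was not tested. Of 11 other pyruvate and lactate genes 4 fell, beside the same 13.4% of all genes. Among them were Mpc2, a subunit of the mitochondrial pyruvate carrier (log2 fold change -1.24, SE 0.13, adjusted p = 0.0012), the phosphatase Pdp2 (log2 fold change -1.14, SE 0.26, adjusted p = 0.0186) and the kinase Pdk2 (log2 fold change -0.94, SE 0.22, adjusted p = 0.0195). Of 6 tested gluconeogenesis genes 2 rose and 2 fell, so that 4 of 6 were called, beside 28.1% of all genes. Pcx, pyruvate carboxylase, rose (log2 fold change 1.09, SE 0.16, adjusted p = 0.00403), and the hepatocyte enzymes G6pc1 (log2 fold change -1.84, SE 0.49, adjusted p = 0.0325) and Fbp1 (log2 fold change -1.83, SE 0.55, adjusted p = 0.0461) fell on 4 to 17 UMIs per library.

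In the pentose phosphate pathway and the tricarboxylic acid cycle 1 gene each was called. Of 7 pentose phosphate genes 1 rose, the dehydrogenase Pgd (log2 fold change 0.53, SE 0.15, adjusted p = 0.0422), and of 17 genes of the tricarboxylic acid cycle 1 fell, the succinyl-CoA ligase subunit Suclg2 (log2 fold change -0.66, SE 0.12, adjusted p = 0.00997). The first share is close to the 14.6% of all genes that rose, and the second lies below the 13.4% that fell. The medians of these lists were 0.37 and -0.02. Among 12 other regulators of HIF 2 fell (16.7%, close to the same 13.4%), Eloc, a subunit of the ubiquitin ligase that binds HIF (log2 fold change -0.53, SE 0.11, adjusted p = 0.0148), and Cited2, a competitor of HIF for its coactivator (log2 fold change -0.58, SE 0.15, adjusted p = 0.0292).

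Of 30 tested genes on the list of further HIF targets, 12 rose and 5 fell in BEC-like cells, with a median log2 fold change of 0.13. Stc1, a stanniocalcin hormone, went from 0.978 and 0.876 CPM to 8.52 and 9.50 CPM (log2 fold change 3.27, SE 0.29, adjusted p = 0.000669). Zfp395, a zinc finger gene, fell from 44.8 and 48.5 CPM to 13.5 and 11.8 CPM (log2 fold change -1.89, SE 0.14, adjusted p = 0.000409). The 12 that rose are 40.0% of those tested, beside 14.6% of all genes, and the 5 that fell are 16.7%, close to the 13.4% of all genes. In mesenchymal-like cells 4 of 26 tested genes of this list rose, where 2.65% of all genes rose and 6.85% were called in either direction. They were Hmox1, heme oxygenase (log2 fold change 2.87, SE 0.41, adjusted p = 0.00563), the peptide Edn1 (log2 fold change 2.69, SE 0.48, adjusted p = 0.0121), and the collagen-modifying enzymes Loxl2 (log2 fold change 1.22, SE 0.25, adjusted p = 0.0209) and Plod2 (log2 fold change 1.07, SE 0.26, adjusted p = 0.0384). Of 48 tested genes on the other 6 lists, 0 were called in mesenchymal-like cells by edgeR, 4 had an unadjusted p under 0.05, and DESeq2 called 0.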

How the data were processed

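Single cells from 4 mouse livers were measured, per the labels' protocols, with the Parse Biosciences Evercode kit, which barcodes fixed cells by repeated splitting and pooling and primes with oligo(dT) and random hexamers. The authors deposited, per library, a matrix of raw counts (UMIs per cell and gene, not normalized), a gene table whose genome name is mm39refseq per the file headers, and a cell table. The submitters' processing notes name GRCm39. The aligner, the threshold for a cell, strand use and doublet treatment are not given in the sources used here. Random priming also counts unspliced RNA and long genes more, so levels were compared within a gene only.

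Of 12211 cells, 7 under 500 UMIs and 11 above 20% mitochondrial counts were left out. Scrublet called 12 of 12193 doublets (0.0984%), too few to have worked. These were removed, leaving 12181. The 2000 most variable genes gave 30 components and 20 Leiden clusters (20 neighbours, resolution 1; scanpy 1.11.5, leidenalg 0.10.2). A non-biliary class needed 3 markers and 50% of its list, each marker in 5% of cells and more than 2-fold above other cells. This scoring rule was set after values were seen, since hepatocyte transcripts occur in sham biliary clusters, and the other clusters were named from biliary markers against non-biliary cells.

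Counts were summed per library and class and tested with edgeR 4.0.16 (R 4.3.3: TMM, default low-count filter, quasi-likelihood F test, two-sided, Benjamini-Hochberg over all genes tested, threshold 0.05). A gene is called when its adjusted p is under 0.05. The interaction model used the mouse as a block. CPM were scaled by TMM except within clusters, in sums over marker lists and in shares of endothelial-like levels. Folds are those of the fit. The fits were tested on simulated data. Nothing in the labels gives litters or batches, and separate mice are taken from the sample names, so p-values measure the spread between these libraries. Alternatives were DESeq2 1.42.0, other factors, filters, cell sets and clusterings, single sublibraries of the kit, and leaving out each library, in which fits the single library left in a group is given the spread of the other group.

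The members and gene lists were chosen with earlier results of these data known. Values in every library are given for each called member and for Hif1a, Epas1, Arnt, Egln1, Egln3, Vegfa, Car9, Slc2a1 and Gapdh in BEC-like cells. From each further list up to 3 called genes with the smallest adjusted p in BEC-like cells are named, except genes that are not reported here, and in mesenchymal-like cells the called genes were named after their values were seen. Clusters, the 5 printed promoters and the genes described by cluster were also chosen after values were seen.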

Additional observations from a re-analysis of the deposited data

Results flagged for a closer look

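Hk1 differed between the classes in its response to BDL, by the test of the difference itself (interaction -0.99 on the log2 scale, BEC-like minus mesenchymal-like, adjusted p = 0.0457). It was lower in both BDL libraries than in both sham libraries of BEC-like cells, and in mesenchymal-like cells the groups overlapped. The call passed the threshold in none of the 6 other settings in which it was tested, and 1 of 34 members called (2.94%) lies below the 6.77% of all genes called.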

How the results depend on the processing

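No paired analysis was possible because no label numbers the mice, and the numbers used here follow sample order. With 2 libraries per group, each call rests on few mice.

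In BEC-like cells 4438 genes and 16 members were called, against 3365 to 6011 genes and 13 to 17 members in 10 other settings. Of the calls 52.1% were higher, 62.7% with no filter and 61.1% with DESeq2. With each library left out in turn, 739 to 6340 genes and 5 to 16 members were called. The sublibraries 1 to 8 of the kit, taken alone, hold fewer cells and gave 592, 2285, 1916, 2232, 2032, 2006, 2300 and 2032 genes and 3, 9, 5, 9, 8, 10, 6 and 10 members.

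In mesenchymal-like cells 601 genes and 4 members were called. DESeq2 gave 348 genes and 2 members, no filter 1130 genes and sums without cycling cells 377 genes. Leaving out a library gave 173 to 1332 genes and 0 to 7 members. For the difference between the classes, 1036 genes and 1 member were called, 2 members with no filter and 0 under a 10 CPM filter, and 493 to 1076 genes and 0 to 3 members with a library left out.

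Directions turned for members that were not called, and for Hif1a in sublibrary 1 (-0.0415). In BEC-like cells the log2 values were, with no filter, 0.0549 for Aldoa, 0.0467 for Pkm and 0.10 for Slc16a1, and with DESeq2 0.0402 for Slc16a1. In the matching pair they were -0.13 for Pgk1, -0.10 for Eno1 and 0.15 for Slc16a1. In single sublibraries they were 0.38 for Pfkp, 0.21, 0.0104 and 0.00185 for Aldoa, -0.0245 for Pgam1, -0.38 and -0.25 for Eno1, 0.10, 0.17 and 0.14 for Pkm, -0.0948 for Ldha, 0.0181 and 0.0661 for Slc16a1, 0.0802 for Pdk1, 0.48 for Arnt and 0.16 for Higd1a. With a library left out they ranged from -0.17 to 0.0297 for Aldoa, -0.0505 to 0.32 for Eno1, -0.15 to 0.00388 for Pkm and -0.17 to 0.13 for Slc16a1.

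In mesenchymal-like cells, Tpi1 was at -0.13 without cycling cells and Hif1a at -0.0593 with thinned sums. In the matching pair Eno1 was at -0.76, Slc16a3 at -0.0362, Hif1a at -0.15 and Ndrg1 at -0.18. With a library left out the ranges were -0.16 to 0.0296 for Hk1, -0.69 to 0.074 for Aldoa, -0.61 to 1.06 for Eno1, -0.12 to 0.33 for Hif1a, -0.61 to 0.0309 for Egln1 and -0.70 to 0.15 for Vegfa. The difference between classes for Epas1 was -0.00164 with genes of at least 10 CPM, -0.27 in the matching pair and -0.12 to 0.24 with a library left out. The cause was not tested for any of these.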
